A study of Homo sapiens with 42 samples.

Results

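The HOX cluster genes were followed in HAP1 cells that lack 1 or several NEIL DNA glycosylases. Members were the rows of the deposited expression matrix whose symbol is HOX, a cluster letter from A to D and a number, and 37 of 20515 named genes met this rule. They comprised 11 HOXA, 9 HOXB, 9 HOXC and 8 HOXD genes, and HOXB1 and HOXD1 were not analysed here. A member was counted as expressed when its mean over all 42 libraries was 10 normalised reads or more, which held for 31 of the 37: 11 in HOXA, 7 in HOXB, 7 in HOXC and 6 in HOXD.

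HAP1 is a near-haploid human line derived from a chronic myeloid leukaemia line, and NEIL1, NEIL2 and NEIL3 are enzymes that remove oxidised bases from DNA. The genotypes are named wt, neil1, neil2, neil3 and neil123, the last lacking all of NEIL1, NEIL2 and NEIL3. Every genotype received media alone or 200 µM BSO (buthionine sulfoximine, an inhibitor of glutathione synthesis) for 48 h, begun after 4 h. The labels fall into an unlettered set of 18 libraries, with 3 libraries per treatment of wt (1.1, 1.3, p1), neil1 (12, neil1_13.1, neil1_13.2) and neil2 (neil2_11.1, neil2_11.2, 12), and a set of 24 libraries whose names end in A or B, with 4 libraries per treatment of wt (1.1A, 1.1B, 1.3A, 1.3B), neil3 and neil123 (each 1A, 1B, 2A, 2B). For the knockouts the first number of a name is read here as the cell line, which gives 2 lines for each knockout genotype. For wt, 1.1, 1.3 and p1 are read as separate lines. The labels do not state either reading. How the knockouts were made, and how separate the cultures were that the labels call biological replicates, is not stated in the labels, so p-values measure the spread between these libraries. Each knockout was compared with the wt libraries of its own label set.

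HOX genes encode homeodomain transcription factors that give cells their position along the body axis, and within a cluster their order on the chromosome follows the order in which they act from head to tail. Polycomb proteins hold silent HOX genes shut, while MLL and Trithorax proteins keep active ones open, and retinoic acid and CDX factors switch on stretches of neighbouring genes. The state of a cluster is inherited through cell division, so related cell lines can carry different stretches of active HOX genes. Cultured blood cancer cells commonly express HOXA genes, and HOXC and HOXD genes of high number act in the limb and the posterior trunk.

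The sequences just before HOXD11 and HOXD13 are shown because these genes of 1 cluster moved in different knockouts: HOXD11 was nearly absent in neil3, while HOXD13 was high in 1 neil2 line and present in neil3. Each is the 250 bases before the gene's start in RefSeq (GRCh38.p14), read 5′ to 3′ on the plus strand of chromosome 2, in lower case with each CG in capitals. The window before HOXD11 lies at chr2:176107030-176107279 and that before HOXD13 at chr2:176092471-176092720.
HOXD11: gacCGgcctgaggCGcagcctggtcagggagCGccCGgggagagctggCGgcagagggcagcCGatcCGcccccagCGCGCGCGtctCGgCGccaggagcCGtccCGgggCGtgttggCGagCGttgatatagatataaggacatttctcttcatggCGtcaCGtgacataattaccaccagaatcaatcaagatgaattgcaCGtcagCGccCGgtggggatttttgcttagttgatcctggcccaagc
HOXD13: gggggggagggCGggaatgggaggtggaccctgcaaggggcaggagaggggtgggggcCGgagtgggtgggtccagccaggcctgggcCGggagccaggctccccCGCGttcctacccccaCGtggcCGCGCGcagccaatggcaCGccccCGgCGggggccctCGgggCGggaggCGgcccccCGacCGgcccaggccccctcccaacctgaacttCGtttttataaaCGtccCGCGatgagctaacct
The HOXD11 window held 23 CG pairs and the HOXD13 window 21, against a median of 11 over 35116 windows of the same length. The letters TATAAA, read on both strands, occurred before HOXD13 and in 10.7% of all windows, and were not found before HOXD11. TAATTA, the core letters bound by many homeodomain proteins, occurred before HOXD11 and in 4.35% of all windows. CCAAT occurred before HOXD13 and in 32.0% of all windows. None of these motifs holds a CG, so they do not overlap the capitals, and a match describes the sequence only.

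Libraries of the unlettered set held 30.2 to 30.9 M recovered reads and those of the lettered set 27.2 to 29.02 M. The targeted genes kept RNA in their own knockouts: NEIL1 was at 386 normalised reads in neil1 against 355 in wt of its set, NEIL2 at 311 in neil2 against 554, and NEIL3 at 520 in neil3 against 640, all means in media, so RNA level alone does not check the labels. Of 10 blood markers 7 were in the table, and 5 of them averaged 10 or more. The pan-leukocyte gene PTPRC (mean 0.639) and the erythroid factor GATA1 (0.524) were near 0. TAL1 stood at 1146, KIT at 378, RUNX1 at 362, LYL1 at 62.6 and CD34 at 57.6. VIM, a mesenchymal intermediate filament gene, averaged 16329. The epithelial markers were split: the cadherin CDH1 averaged 1.26 and EPCAM 53.9, against 2004 for KRT8 and 1862 for KRT18. All 5 neural markers averaged 10 or more. Their sum, on average mostly from a single gene, ranged from 26891.5 to 51040 over the libraries. Endothelial PECAM1 and CDH5 averaged 0.468 and 0.237. Summed blood markers ranged from 1186 to 3115 and summed epithelial markers from 1817 to 11010.1 over the libraries. In neil2 media the blood sum averaged 1355 against 2157 in wt of its set and the epithelial sum 7547 against 2965. In neil1 media, of the same set, the blood sum averaged 2787 and the epithelial sum 5526. The part of these markers in the neil1 and neil2 results was not tested. In bulk RNA, fewer cells that express a gene and less RNA per cell cannot be told apart.

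HOX genes of all 4 clusters were expressed in HAP1, and HOXA, with the most members, had the largest summed reads. The summed normalised reads of the members averaged 7017 for HOXA (chromosome 7), 2785 for HOXB (chromosome 17), 1654 for HOXC (chromosome 12) and 1117 for HOXD (chromosome 2). All clusters together gave 11274 to 14329 per library. These sums favour long genes and clusters with more members, so the genes within each cluster are compared per kilobase of exon, from GENCODE v29.

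In HOXA every member was expressed. Per kilobase, HOXA9 (667) and HOXA13 (485) led, followed by HOXA7 (273), HOXA11 (244), HOXA10 (159.6) and HOXA5 (144). HOXA9 is a leukaemia-associated factor, and HOXA13 patterns the distal limb and the urogenital tract. The anterior and central genes HOXA6 (45.9), HOXA3 (19.5), HOXA2 (10.3) and HOXA4 (7.80) were low. HOXA7 shares 62.5% of its exon bases with the antisense gene HOXA-AS3 and HOXA4 47.3% with several genes, so, with the strand setting of the counting not given, reads there cannot be assigned to 1 gene.

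In HOXB, HOXB2 (369.6 per kilobase), a hindbrain gene, HOXB13 (198), a prostate and tail gene, and HOXB4 (195), a blood stem cell factor, were high. HOXB9 reached 82.0, HOXB3 30.3, HOXB6 17.5 and HOXB5 7.23. HOXB7 and HOXB8 were not expressed, with means of 1.14 and 5.58 normalised reads.

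In HOXC, HOXC8 (274 per kilobase) and HOXC13 (220.5), a hair and nail gene, were high, and HOXC10 (80.7), HOXC6 (76.6), HOXC11 (26.3), HOXC9 (14.3) and HOXC4 (10.7) were lower. HOXC5 and HOXC12 were not expressed (2.08 and 1.68 normalised reads). In HOXD, HOXD13 (285 per kilobase), the most posterior member and a digit gene, stood first, ahead of HOXD4 (127), HOXD8 (71.2), HOXD3 (16.5), HOXD12 (12.6) and HOXD11 (7.62). HOXD9 and HOXD10 stood under the limit with means of 8.88 and 6.40 normalised reads, though HOXD9 averaged 15.1 and HOXD10 17.6 in neil123 media. Both also averaged over 10 in neil123 with BSO. HOXD9 did so in neil2 and in lettered wt as well, in both treatments. HOXD4 shares 80.5% and HOXD3 74.1% of its exon bases with other annotated genes.

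**Figure D1:**
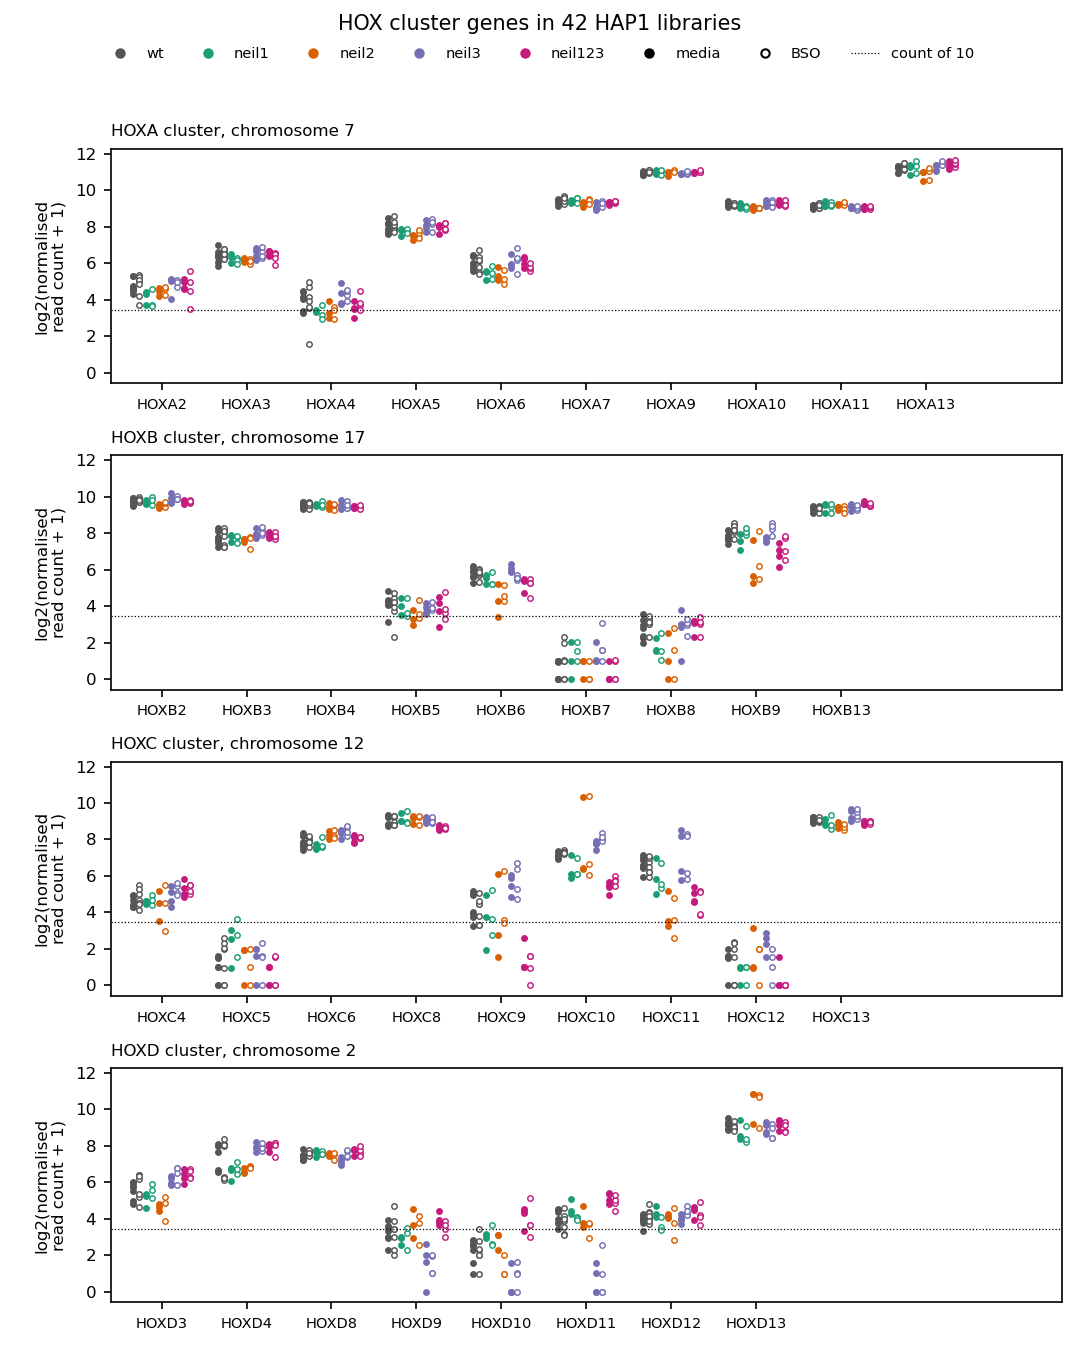
Each point is 1 of 42 libraries for a member, on log2(normalised read count + 1), with members of a cluster ordered by number, colours for genotypes, filled points for media and open points for BSO. The dotted line marks 10 normalised reads, and the points of HOXA9 lie close together while those of HOXC9, HOXC10, HOXC11, HOXD11 and HOXD13 spread.

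Before division by exon length, HOXA13, HOXA9, HOXB2 and HOXB4 had the highest means of the 37 members. Per kilobase, other members such as HOXD13 (285) stood above HOXB4 (195). HOXA13 had a lowest, median and highest value of 1984, 2492 and 2904 in the 14 wt libraries. The knockouts gave 1822, 2508 and 3150.3 in neil1, 1428, 2058 and 2389 in neil2, 2116, 2647 and 3058 in neil3, and 2258, 2805 and 3275 in neil123. The genotypes overlapped, with neil2 reaching lowest. HOXA9 gave 1861, 2051 and 2174 in wt, 1862, 2070 and 2245 in neil1, 1784, 2069 and 2199.7 in neil2, 1872, 1924 and 2137 in neil3, and 1958, 2024 and 2191 in neil123. HOXA9 was the steadiest member, with 0.33 between its lowest and highest library on the log2 scale, against 1.20 for HOXA13. HOXB2 gave 705, 871 and 989.7 in wt, 755, 851 and 997 in neil1, 663, 735 and 837 in neil2, 799.8, 941 and 1197 in neil3, and 781, 862 and 886 in neil123. HOXB4 gave 627, 764 and 847 in wt, 702, 748 and 867 in neil1, 609, 719 and 809 in neil2, 638, 709 and 897 in neil3, and 644, 676 and 757 in neil123. In both HOXB genes all genotypes overlapped.

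The spread over libraries differed by cluster. On log2(normalised read count + 1), the median distance between the lowest and highest library was 1.12 for HOXA and 1.19 for HOXB members, against 2.86 for HOXC and 2.46 for HOXD. The widest were HOXC9 (6.73), HOXC11 (5.91), HOXD11 (5.42) and HOXC10 (5.41). HOXC9, HOXC10 and HOXC11 are neighbours at chr12:53973126-54003337, and the next expressed genes on either side, HOXC13 and HOXC8, spanned 1.16 and 1.02. Low genes scatter more from counting alone, and HOXC9 and HOXD11 average 24.0 and 16.1 normalised reads.

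No expressed HOX gene passed the threshold in neil1. The test was limma with an intensity trend on log2(normalised read count + 1) over 14331 genes, with Benjamini-Hochberg adjustment over all of them and a threshold of 0.05. In media 0.3% of all genes tested passed it, and 0 HOX genes were called, 0 of them at an unadjusted p under 0.05. With BSO 0.202% of all genes tested passed, again with 0 HOX genes, and 2 had an unadjusted p under 0.05. edgeR on the recovered reads called 0 in both. HOXC10 averaged 88.3 ± 43.8 (SD, n = 3) in neil1 media and 141 ± 23.3 (SD, n = 3) in wt, a log2 difference of -0.76 ± 0.68 (SE) that missed the threshold (limma adjusted p = 0.691).

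In neil2, the posterior gene HOXD13 rose and HOXC11, HOXB9 and HOXB6 fell, and in all 4 line 11 lay farther from wt than line 12. In media 4 of 31 expressed HOX genes (12.9%) passed, beside 11% of all genes tested, and with BSO 5 of 31 (16.1%), beside 15.8%. The share of HOX genes was thus near the background. The median absolute log2 difference was 0.19 for HOX genes and 0.13 for all genes in media, and 0.32 and 0.15 with BSO.

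HOXD13 in media was 1844 and 1849.7 in neil2_11.1 and neil2_11.2 and 580.3 in neil2_12, against 475, 637 and 486 in wt 1.1, 1.3 and p1. With BSO it was 1785 and 1668 in neil2_11.1 and neil2_11.2 and 499 in neil2_12, against 493, 575 and 446 in wt. Both line 11 libraries stood above every wt library, and line 12 lay among them. The log2 difference was 1.25 ± 0.36 (SE, limma adjusted p = 0.0219) in media and 1.18 ± 0.36 (limma adjusted p = 0.0228) with BSO. With line 12 alone, an alternative chosen after seeing the data, the differences were 0.14 (limma adjusted p = 0.913) and -0.0073 (limma adjusted p = 0.996), so the direction with BSO turned. Line 12 is 1 library per treatment, which is assumed to vary like the libraries of the other groups.

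HOXB9, a thoracic patterning gene, was at 36.8 and 48.8 in neil2_11.1 and neil2_11.2 and 197 in neil2_12 in media, against 223, 292 and 233 in wt 1.1, 1.3 and p1. With BSO it was at 44.3, 71.1 and 279 in neil2 and 269, 377 and 284 in wt. Line 11 was below all wt libraries in both treatments, and line 12 stood inside the wt range with BSO and below it in media. The groups differed by -1.79 ± 0.46 (SE on the log2 scale, limma adjusted p = 0.0108) in media and -1.66 ± 0.46 (limma adjusted p = 0.0125) with BSO, and with edgeR the BSO comparison missed the threshold (adjusted p = 0.0558).

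HOXB6, a gene of the middle of its cluster, was at 9.69, 18.6 and 35.8 in neil2_11.1, neil2_11.2 and neil2_12 in media, against 49.9, 48.0 and 59.3 in wt 1.1, 1.3 and p1. The BSO values were 18.1, 22.7 and 34.1 in neil2 and 63.9, 61.4 and 58.4 in wt. Every neil2 library was below every wt library of the set. The log2 difference was -1.43 ± 0.30 (SE, limma adjusted p = 0.00306) in media and -1.31 ± 0.30 (limma adjusted p = 0.00405) with BSO, and both calls held with 1 mean per line (limma adjusted p = 0.0283 and 0.0243).

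HOXC11 was at 8.72, 10.7 and 35.8 in neil2_11.1, neil2_11.2 and neil2_12 in media, against 59.4, 95.1 and 84.6 in wt 1.1, 1.3 and p1. With BSO it was at 5.03, 10.9 and 26.3 in neil2 and 60.0, 88.2 and 73.3 in wt. The groups did not overlap, and line 11 was lowest. The groups differed by -2.30 ± 0.64 (SE on the log2 scale, 4.91-fold lower, limma adjusted p = 0.0194) in media and -2.56 ± 0.64 (5.91-fold lower, limma adjusted p = 0.00725) with BSO. HOXD4, a hindbrain and neck gene, rose with BSO, at 117, 116 and 110.1 in neil2_11.1, neil2_11.2 and neil2_12 against 77.7, 68.4 and 75.3 in wt 1.1, 1.3 and p1. In media it was at 108, 93.8 and 89.9 in neil2 and 98.7, 95.1 and 103 in wt, which overlap. Its log2 difference with BSO was 0.62 ± 0.18 (SE, limma adjusted p = 0.0177), and it too passed with 1 mean per line (limma adjusted p = 0.0266).

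These neil2 calls rested on few libraries. Without neil2_11.1 or without neil2_11.2, 1 HOX gene (HOXB6) passed in media in place of 4, and without wt 1.1 HOXB9 and HOXB6 passed. In media HOXD13 lost its call without wt 1.1 (limma adjusted p = 0.0934), wt p1 (0.0510), neil2_11.1 (0.121) or neil2_11.2 (0.168). HOXC11 lost it without wt 1.1 (limma adjusted p = 0.0510), wt 1.3 (0.0674), neil2_11.1 (0.0921) or neil2_11.2 (0.109), and HOXB9 without neil2_11.1 (0.0880) or neil2_11.2 (0.0939). With BSO the count was 3 without wt 1.3 or wt p1 and 2 without neil2_11.1 or neil2_11.2. HOXD13 lost its call there without wt 1.1 (limma adjusted p = 0.0589), wt p1 (0.0904), neil2_11.1 (0.1598) or neil2_11.2 (0.153), and HOXD4 without wt 1.3 (0.0627), wt p1 (0.0519), neil2_11.1 (0.0586) or neil2_11.2 (0.0649). HOXB9 lost it without wt 1.3 (limma adjusted p = 0.05005), neil2_11.1 (0.134) or neil2_11.2 (0.0795), and HOXC11 without neil2_11.1 (0.0631).

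In neil3, HOXD11 was nearly lost, and in the same cluster HOXD10 and HOXD9 were low while HOXD8, HOXD12 and HOXD13 were not called. HOXD11 was the 1 called HOX gene of 31 (3.23%) in media, beside 0.44% of all genes tested, and in BSO, beside 0.405%. It was at 0, 2.0, 1.04 and 0 in neil3 1A, 1B, 2A and 2B in media, against 19.4, 12.7, 22.3 and 14.8 in wt 1.1A, 1.1B, 1.3A and 1.3B. The BSO values were 0, 4.90, 0 and 0.992 in neil3 and 16.7, 14.98, 23.2 and 7.77 in wt. All 8 neil3 libraries, of both lines, were below all 8 wt libraries of the set. The log2 difference was -3.51 ± 0.42 (SE, limma adjusted p = 2.22e-06) in media and -3.08 ± 0.42 (limma adjusted p = 2.98e-05) with BSO. As recovered reads, 3 in neil3 media stood against 69 in wt, a level of 4.37% of wt with a 95% exact binomial interval from 0.880% to 13.3%, and 6 against 62 with BSO, 9.68% with an interval from 3.42% to 22.3%. The intervals cover counting error only. The call held in each line alone, with 1 mean per line, without any single library and with edgeR.

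HOXD10, which lies next to HOXD11 and averages under 10, was at 2.01, 0, 0 and 0 in neil3 1A, 1B, 2A and 2B in media, against 5.09, 5.88, 6.07 and 3.94 in wt 1.1A, 1.1B, 1.3A and 1.3B. With BSO it was at 1.01, 0, 2.07 and 0.992 in neil3 and 4.17, 2.996, 10.1 and 5.83 in wt. With the mean limit lowered to 1, HOXD10 passed in media (log2 difference -2.23, limma adjusted p = 0.00657) and not with BSO (-1.75, limma adjusted p = 0.0774). HOXD10 and HOXD11 share 452 exon bases, so part of their reads cannot be assigned to 1 of them. HOXD9 gave 10 reads in neil3 media against 41 in wt, or 24.5% with a 95% exact binomial interval from 10.96% to 49.8%, and missed the threshold in media and with BSO at the lower limit (limma adjusted p = 0.0775 and 0.0547).

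The genes on either side showed other values. HOXD12 averaged 15.1 ± 2.54 (SD, n = 4) in neil3 media and 13.96 ± 3.89 (SD, n = 4) in wt, and HOXD13, the outermost member, 501 ± 108 and 615 ± 74.5. HOXD8 averaged 142 ± 20.9 in neil3 and 182 ± 30.8 in wt, a log2 difference of -0.35 ± 0.13 (SE, limma adjusted p = 0.494). In the triple knockout neil123, which also lacks NEIL3, HOXD11 was above wt rather than below, at 39.8, 26.9, 31.6 and 41.7 in 1A, 1B, 2A and 2B in media, without a call (limma adjusted p = 0.190). HOXD10 reached 21.9, 18.6, 20.7 and 9.15 there and with the mean limit at 1 passed as higher than wt in media (log2 difference 1.52, limma adjusted p = 0.0391) and not with BSO (1.21, limma adjusted p = 0.103). HOXD9 was at 20.9, 14.5, 11.8 and 13.22, against 9.17, 10.8, 14.2 and 6.89 in wt 1.1A, 1.1B, 1.3A and 1.3B, which overlap. With the mean limit at 1 HOXD9 did not pass in media (log2 difference 0.53, limma adjusted p = 0.662) or with BSO (0.0010).

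**Figure D2:**
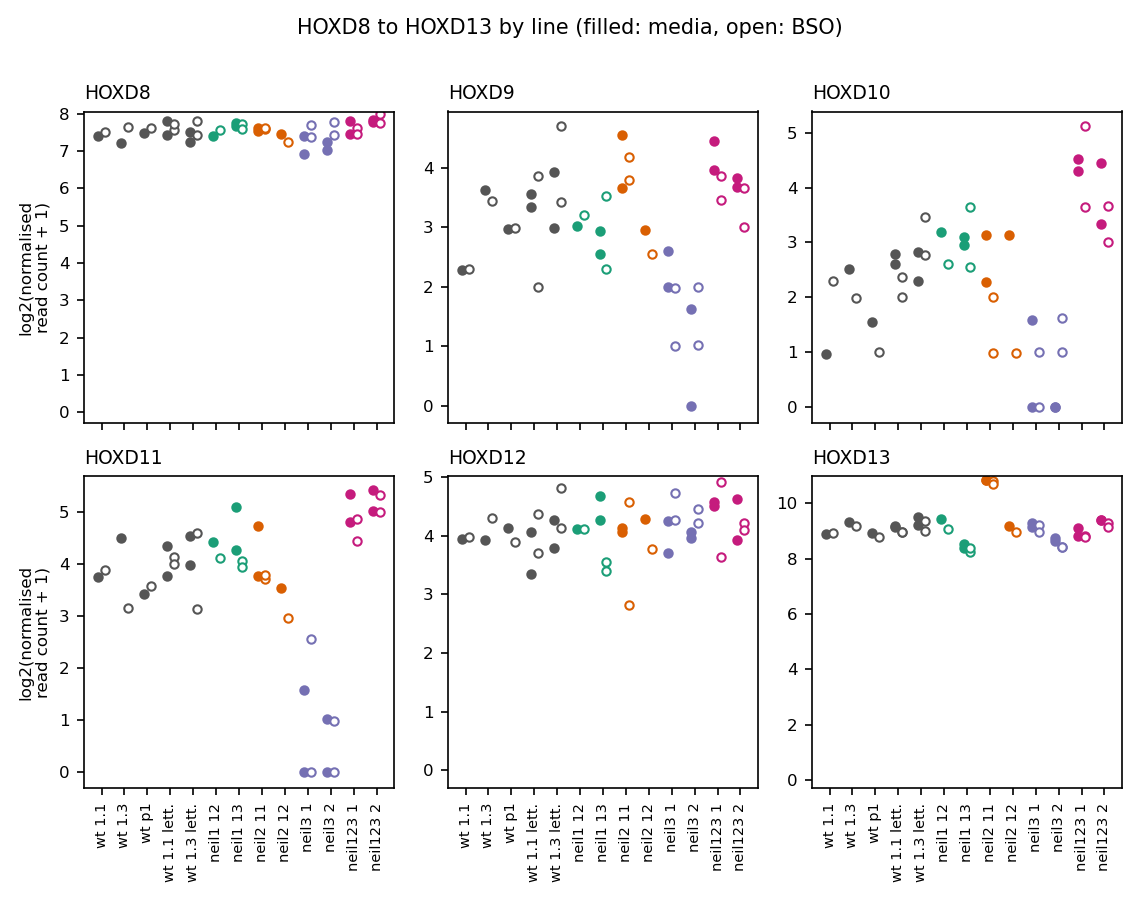
HOXD8 to HOXD13 on log2(normalised read count + 1) in every library, by line, with filled points for media and open points for BSO; wt lines of the lettered set are marked. The neil3 lines 1 and 2 have the lowest line means for HOXD10 (0.755 and 0.766 normalised reads) and HOXD11 (1.73 and 0.509) and lie among the other lines for HOXD12, and the neil2 line 11 stands above all other lines for HOXD13.

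In neil123, HOXC9 was nearly lost and HOXC11 fell, with HOXC10 between them low and uncalled. In media 2 of 31 HOX genes (6.45%) passed, beside 5.34% of all genes tested, and with BSO the same number, beside 8.09%, so the share was near the background. HOXC9, a motor neuron and trunk gene, was at 4.98, 1.04, 0.987 and 1.02 in neil123 1A, 1B, 2A and 2B in media, against 15.3, 31.4, 30.4 and 34.5 in wt 1.1A, 1.1B, 1.3A and 1.3B. The BSO values were 2.0, 2.09, 0.972 and 0 in neil123 and 20.8, 20.97, 24.2 and 33.0 in wt. No neil123 library reached a wt library of the set. The groups differed by -3.39 ± 0.70 (SE on the log2 scale, limma adjusted p = 0.00168) in media and -3.61 ± 0.70 (limma adjusted p = 8.37e-04) with BSO. In recovered reads, 8 stood against 112 in media (7.21% of wt, 95% exact binomial interval from 3.04% to 14.7%) and 5 against 99 with BSO (5.06%, from 1.61% to 12.2%). HOXC9 shares 9.71% of its exon bases with HOXC-AS2, which also fell in neil123.

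HOXC11 was at 32.9, 22.8, 40.5 and 23.4 in neil123 1A, 1B, 2A and 2B in media, against 117, 92.1, 141 and 124 in wt 1.1A, 1.1B, 1.3A and 1.3B. With BSO it was at 35.05, 13.6, 34.0 and 14.1 in neil123 and 109, 72.9, 128 and 135 in wt. The groups did not overlap in either treatment. The log2 difference was -1.98 ± 0.56 (SE, 3.93-fold lower, limma adjusted p = 0.0278) in media and -2.25 ± 0.56 (4.76-fold lower, limma adjusted p = 0.00939) with BSO. HOXC10 was at 49.8, 41.4, 44.4 and 30.5 in neil123 in media and 136, 149, 127 and 145 in wt, again without overlap, and its log2 difference of -1.74 ± 0.59 (SE) missed the threshold (limma adjusted p = 0.0784), as did the -1.54 ± 0.59 with BSO (limma adjusted p = 0.105). The spread that limma used for HOXC10 includes the neil2 lines, which differ 15.7-fold.

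The HOXC11 call in media was lost without wt 1.1A (limma adjusted p = 0.0578), wt 1.3A (0.0643), wt 1.3B (0.0688), neil123 1A (0.0508), neil123 1B (0.0779) or neil123 2B (0.0800), which left 1 called HOX gene (HOXC9). With 1 mean per line in place of libraries, 0 HOX genes passed in neil123 in either treatment, and HOXC9 had a limma adjusted p of 0.192 in media and 0.130 with BSO.

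**Figure D3:**
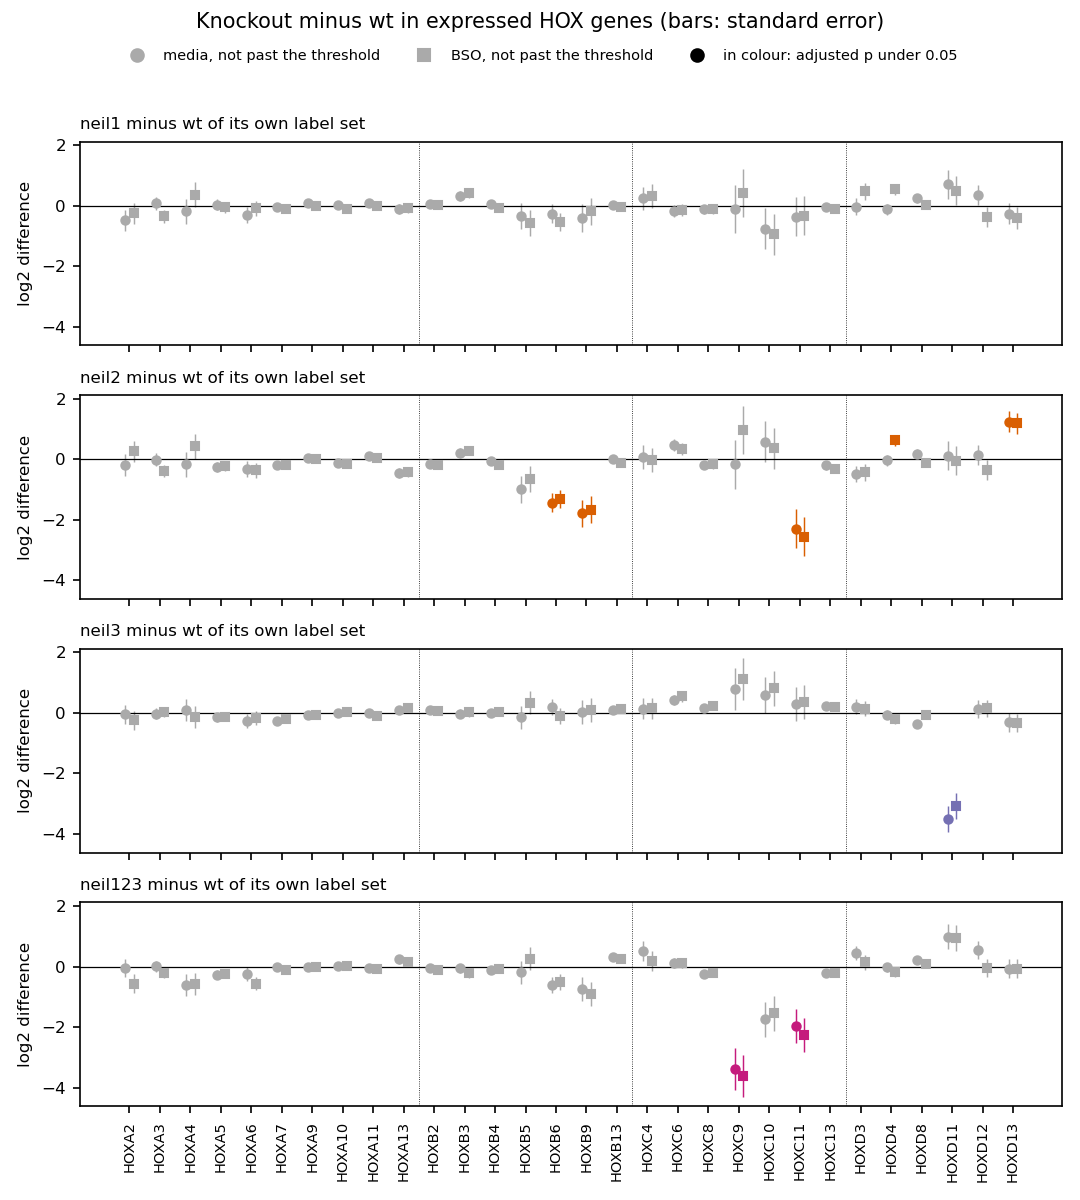
Log2 difference between each knockout and wt of its own label set, with its standard error, for expressed HOX genes in cluster order; circles are media and squares BSO, and differences past an adjusted p of 0.05 are coloured. No HOXA point is coloured, with HOXA differences between -0.60 and 0.43, and the coloured points are HOXB6, HOXB9, HOXC11, HOXD4 and HOXD13 in neil2, HOXD11 in neil3, and HOXC9 and HOXC11 in neil123.

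Lines of 1 genotype differed in HOX genes as well. Of the 31 expressed members, 15 (48.4%) passed in at least 1 of the 4 comparisons between lines of a knockout, beside 34.1% of all genes tested. At least 1 of the 8 comparisons of a knockout with wt called 7 (22.6%), beside 27.9%, and 6 (19.4%) passed in both kinds, beside 12.2%. The fits between lines take both treatments together with a term for BSO and none for pairs. They count the BSO and media library of the same name as separate, although such libraries deviated together. Their standard errors may therefore be too small. The labels do not state whether libraries of 1 line come from separate clones, so the p-values measure the spread between libraries, not between clones.

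In neil1, line 13 against line 12 gave 10 called HOX genes (32.3%), beside 18.8% of all genes tested, 7 of them lower in line 13. The HOXC genes HOXC9 (means 8.13 against 33.2), HOXC10 (65.6 against 132), HOXC11 (43.4 against 113), HOXC8 (505 against 725) and HOXC13 (437 against 599) were all lower in line 13, as were HOXD13 (334 against 613) and HOXA11 (568 against 660.1). HOXA13 (2703 against 1915), HOXB13 (741 against 541) and HOXD4 (113 against 77.8) were higher. Line 12 of neil1 is 1 library per treatment: without its media library 4 HOX genes passed (HOXD13, HOXC10, HOXC8 and HOXC13), and without its BSO library 6.

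In neil2, line 11 against line 12 gave 9 called HOX genes (29.03%), beside 12.8% of all genes tested. HOXC10, a hindlimb and lumbar gene, was at 82.3 and 85.0 in neil2_11.1 and neil2_11.2 and 1284 in 12 in media, and at 66.4, 99.7 and 1342 with BSO. The 2 libraries of line 12 held the highest HOXC10 values of all 42, and the log2 difference was -3.98 ± 0.16 (SE, limma adjusted p = 3.74e-19). HOXC9 followed with means of 7.19 in line 11 and 72.8 in line 12 (log2 difference -3.36 ± 0.44), and HOXC4, HOXC11, HOXB6 and HOXB9 were also lower in line 11. HOXD13 (1787 against 540) and HOXC8 (603 against 449) were higher. In line 12 alone HOXC10 passed against wt in both treatments (log2 difference 3.196 and 3.05) while both lines together gave no call for it (0.58 ± 0.68 SE in media). Line 12 of neil2 is 1 library per treatment, so the spread behind these values comes from the other groups, and without its BSO library HOXC8 and HOXC4 were no longer called (limma adjusted p = 0.0522 and 0.129). Without its media library HOXB6 was not called (0.306).

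In neil3, line 2 against line 1 gave 5 called HOX genes (16.1%), beside 12.7% of all genes tested. HOXC11 was at 362 and 287 in 2A and 2B and 75.4 and 53.9 in 1A and 1B in media, and at 313 and 293 against 71.6 and 56.9 with BSO. Line 2 held the highest HOXC11 values of all lines (log2 difference 2.27 ± 0.25 SE, limma adjusted p = 2.85e-08). HOXC13 was higher in line 2 (means 770.3 against 569), and HOXC9 (33.5 against 78.0), HOXD13 (376 against 569) and HOXA7 (538 against 620.3) were lower. Without the BSO library 2A, or without the BSO library 1B, HOXC9 and HOXA7 lost the call, which left 3. HOXA7 also missed the threshold with edgeR (adjusted p = 0.0587). HOTAIR, a non-coding RNA read from the HOXC cluster, was at a mean of 212 in line 2 and 2.48 in line 1 (log2 difference 6.18 ± 0.48 SE, limma adjusted p = 8.71e-12).

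In neil123, line 2 against line 1 gave 2 called HOX genes (6.45%), beside 5% of all genes tested: HOXD13 was higher (635 against 476) and HOXB9 lower (98.4 against 187). Between the wt lines 1.3 and 1.1 of the lettered set, a comparison added after seeing the data, limma called 0 HOX genes, beside 0.0768% of all genes tested, with 2 at an unadjusted p under 0.05, and edgeR called 0 with 3. HOXD13 was among those called in all 4 knockout line comparisons, with line 13 of neil1 and line 2 of neil3 low and line 11 of neil2 and line 2 of neil123 high.

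**Figure D4:**
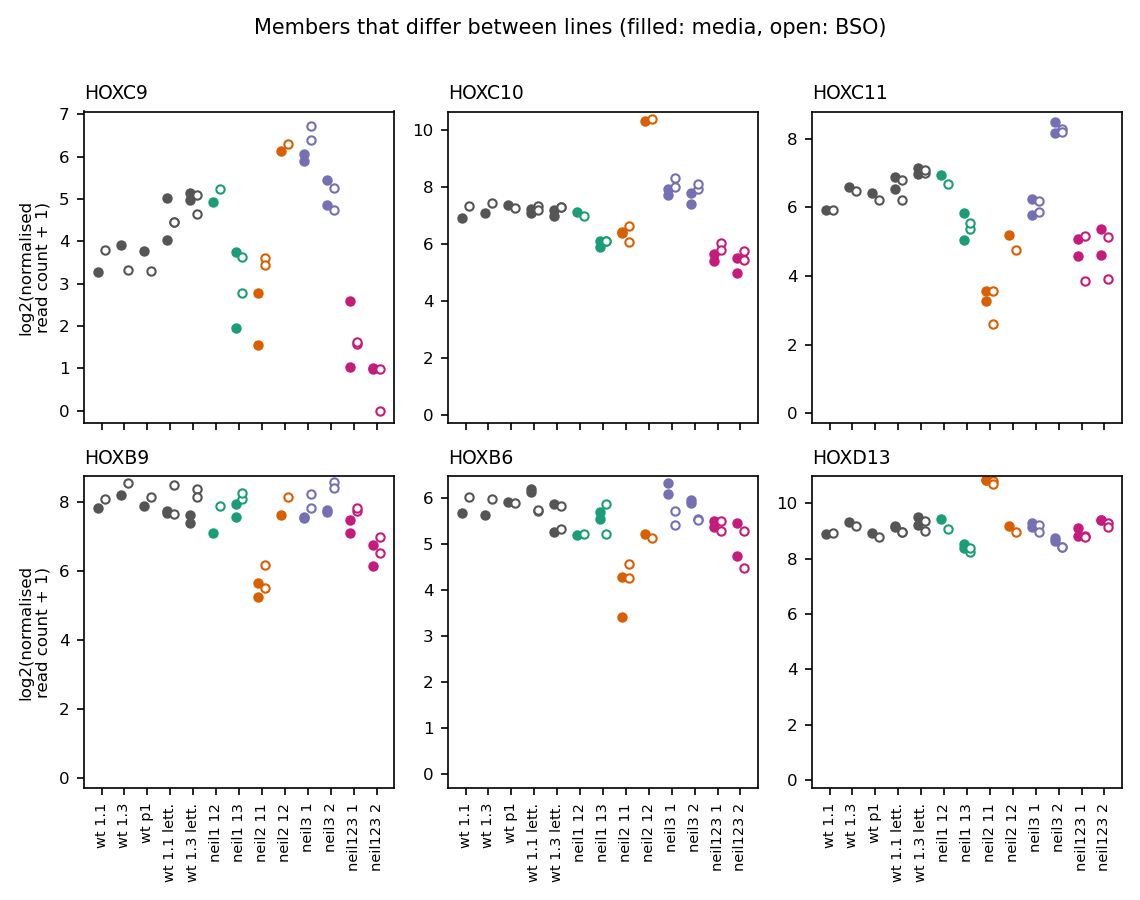
Log2(normalised read count + 1) of HOXC9, HOXC10, HOXC11, HOXB9, HOXB6 and HOXD13 in every library, by line, with filled points for media and open points for BSO; wt lines of the lettered set are marked. Line 12 of neil2 is highest for HOXC10, line 2 of neil3 is highest for HOXC11, and line 11 of neil2 has the lowest mean for HOXB9.

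The wt libraries of the label sets also differed, which is why each knockout was set against its own. Lettered against unlettered wt in media gave 6 called HOX genes (19.4%), beside 39.1% of all genes tested. HOXD4 was at 253, 277, 203 and 267 in wt 1.1A, 1.1B, 1.3A and 1.3B and at 98.7, 95.1 and 103 in wt 1.1, 1.3 and p1, a log2 difference of 1.32 ± 0.17 (SE, limma adjusted p = 1.76e-07) without overlap. HOXD3 (0.77 ± 0.26), HOXB3 (0.55 ± 0.15), HOXA6 (0.60 ± 0.24) and HOXA5 (0.48 ± 0.16) were also higher in the lettered set, and HOXC8 (-0.38 ± 0.13) lower. Without wt 1.1 the calls were HOXD4, HOXC8 and HOXB3, and without wt 1.3 HOXD4 and HOXB3. Leaving out single lettered libraries also ended the calls of HOXA5 (without 1.1B), HOXC8 (without 1.1A or 1.3A) and HOXA6 (without 1.1A, 1.1B or 1.3B), and HOXA6 lost its call without wt p1. What sets the label sets apart is not given in the sources used here.

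BSO moved HOX genes by small amounts, and the call depended on whether libraries were compared in pairs. Comparing groups of libraries, limma called 0 HOX genes in wt (2 at an unadjusted p under 0.05, beside 15.7% of all genes tested called), neil1 (0, beside 1.29%), neil2 (1, beside 0.174%) and neil123 (0, beside 1.7%). In neil3 it called HOXD8 (beside 6.64%), at a log2 change of 0.42 ± 0.13 (SE, limma adjusted p = 0.0409). HOXD8 was at 121, 168, 130.3 and 149.6 in neil3 1A, 1B, 2A and 2B in media and 164, 207, 170.0 and 218 with BSO, and lost the call with edgeR (adjusted p = 0.0505) and without any of 5 single libraries: media 1A (0.171), 2A (0.129) or 2B (0.0516), or BSO 1B (0.119) or 2B (0.164). edgeR called 0 HOX genes in all 5 genotypes, with 2, 0, 1, 3 and 0 at an unadjusted p under 0.05 in wt, neil1, neil2, neil3 and neil123.

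Within pairs, where each BSO library is compared with the media library of the same name, more passed. The paired fit called 6 HOX genes of 31 in wt (19.4%, beside 36.6% of all genes tested), 3 in neil1 (9.68%, beside 11%), 2 in neil2 (6.45%, beside 8.46%), 7 in neil3 (22.6%, beside 24%) and 3 in neil123 (9.68%, beside 11.7%). None of these shares exceeded the background. HOXB9 rose in all 5 genotypes, by 0.44 ± 0.09 in wt, 0.54 ± 0.14 in neil1, 0.43 ± 0.14 in neil2, 0.62 ± 0.12 in neil3 and 0.40 ± 0.12 in neil123 on the log2 scale (SE, limma adjusted p from 2.04e-04 to 0.0431). It was higher with BSO in 20 of 21 pairs, with a range from -0.07 to 0.997 and a median of 0.50. In neil2 it rose in all 3 pairs although its level in line 11 was a fraction of that in line 12.

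HOXA13 was higher with BSO in 21 of 21 pairs, by a median of 0.16, and passed in wt (0.14 ± 0.03 SE, limma adjusted p = 2.30e-04), neil1 (0.14 ± 0.04, limma adjusted p = 0.0354) and neil3 (0.24 ± 0.04, limma adjusted p = 1.25e-05). HOXD13, its counterpart in the HOXD cluster, went the other way, lower in 20 of 21 pairs by a median of -0.16, and passed in wt, neil1, neil3 and neil123 (from -0.13 ± 0.04 SE in wt to -0.22 ± 0.06 in neil1). HOXA7 and HOXA9 were higher in 19 of 21 pairs each, and HOXA7 passed in wt (0.15 ± 0.04 SE) and neil3 (0.19 ± 0.05) and HOXA9 in wt (0.10 ± 0.03). HOXC10 rose in neil3 (0.38 ± 0.10 SE) and neil123 (0.36 ± 0.10). HOXD8 rose in wt (0.18 ± 0.07 SE) and neil3 (0.42 ± 0.09), and HOXB6 fell in neil3 (-0.52 ± 0.17).

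**Figure D5:**
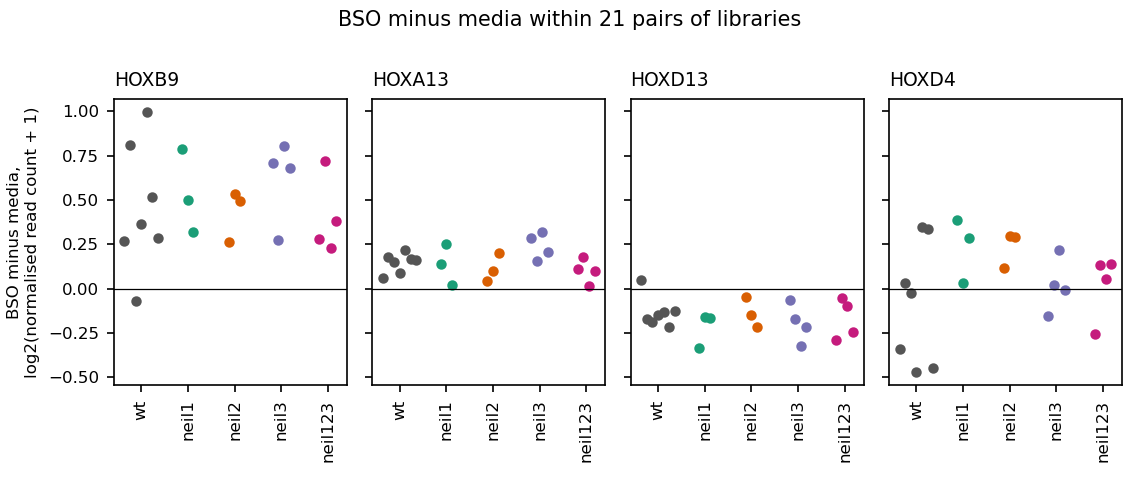
Difference between the BSO and the media library of each of 21 pairs on log2(normalised read count + 1), by genotype, for HOXB9, HOXA13, HOXD13 and HOXD4. HOXA13 lies above 0 in 21 of 21 pairs and HOXD13 below 0 in 20 of 21; for HOXD4 the lowest points belong to wt.

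Whether the BSO change differed between a knockout and wt was tested directly. Comparing groups, limma called 0 HOX genes for each of neil1, neil2, neil3 and neil123, beside 0% of all genes tested in each, with 1, 1, 0 and 0 at an unadjusted p under 0.05, and edgeR called 0 with 1, 1, 0 and 0. In pairs, 1 HOX gene passed in neil1 (beside 2.21% of all genes tested) and 1 in neil2 (beside 10.4%), 0 in neil3 (beside 0%, with 1 at an unadjusted p under 0.05) and 0 in neil123 (beside 0.0349%, with 0). The gene was HOXD4 both times, and both comparisons use the same wt libraries. HOXD4 changed by -0.34, -0.47 and -0.45 in the wt pairs 1.1, 1.3 and p1, by 0.39, 0.03 and 0.28 in the neil1 pairs 12, neil1_13.1 and neil1_13.2, and by 0.12, 0.30 and 0.29 in the neil2 pairs neil2_11.1, neil2_11.2 and 12. The difference was 0.65 ± 0.15 (SE, limma adjusted p = 0.0196) in neil1 and 0.66 ± 0.15 (limma adjusted p = 0.00620) in neil2. In the lettered wt pairs 1.1A, 1.3A, 1.1B and 1.3B HOXD4 changed by 0.03, 0.35, -0.02 and 0.34, all above the unlettered wt pairs.

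HOX proteins bind DNA with TALE homeodomain partners, and all 9 TALE genes were tested. In neil1 and neil3, where 0.202% to 0.44% of all genes passed, 0 TALE genes did. In neil123 media 3 of 9 (33.3%) rose and 0 fell, beside 5.34% of all genes tested: MEIS2 (2005 against 1327), MEIS3 (846 against 622) and PKNOX2 (479.8 against 339), beside a median log2 difference of 0.11 over the list and -0.0017 over all genes. With BSO these 3 also rose and PBX3 fell (1021 against 1352), beside 8.09%. In neil2 media, where 11% of all genes passed, MEIS3 fell (513 against 674). With BSO, where 15.8% passed, MEIS2 rose (1868 against 1427) and MEIS3 fell (468 against 719.8). Over both treatments MEIS2 averaged 2073 in line 11 of neil2 and 1396 in line 12, beside 1406 in wt of its set in media. Its rise thus lay in line 11. MEIS3 thus lay below wt in neil2 and above wt in neil123.

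Among the inputs to HOX clusters, the caudal factor CDX2 fell in neil2 and neil123, and in neil2 line 11 (mean 113) lay below line 12 (234, limma adjusted p = 3.12e-04). Of 19 retinoic acid and CDX genes 16 had a row and 14 passed the mean limit. In neil2 1 of 14 fell in media (7.14%, beside 11% of all genes tested: CDX2, 152 against 370.3) and 2 fell with BSO (14.3%, beside 15.8%: CDX2, 155 against 403, and the retinoic acid carrier CRABP1, 11.8 against 40.9). In neil123 3 of 14 fell in both treatments (21.4%, beside 5.34% in media and 8.09% with BSO): CDX2 (171 against 351 in media), CRABP1 (7.47 against 33.4) and the retinol dehydrogenase RDH10 (435 against 516). None rose in these 4 comparisons, and 0 of 14 passed in neil1 and in neil3, where 0.202% to 0.44% of all genes did. The lines of neil3, which share the low HOXD11, differed in this list: the retinoic acid synthase ALDH1A2 averaged 5.82 in line 2 and 231 in line 1, and the retinoic acid hydroxylase CYP26A1 205 and 25.3.

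Chromatin regulators of HOX clusters passed in neil2 at a share near the background: of 49 in 3 lists, 6 passed in media (12.2%, beside 11% of all genes tested) and 8 with BSO (16.3%, beside 15.8%). In neil123 1 passed in media (2.04%, beside 5.34%) and 4 with BSO (8.16%, beside 8.09%), and 0 passed in neil1 and in neil3. Of 12 Polycomb repressive complex 2 genes, 1 rose (EED) and 1 fell (AEBP2) in neil2 media, 1 rose with BSO (MTF2), and 0 passed in the other 3 knockouts. Of 19 Polycomb repressive complex 1 genes, 0 rose and 1 fell in neil2 media (PHC3), 3 rose and 1 fell with BSO, and in neil123 1 rose in media (PHC2) and 3 with BSO (PCGF5, PHC2 and RYBP). Of 18 MLL and Trithorax genes 3 fell in neil2 media: the histone methyltransferases KMT2A (3133 against 4470.3), KMT2C (1877 against 2587) and KMT2D (3524 against 5237). With BSO none of the 3 passed in neil2, where MLLT10 rose and ASH2L and MLLT1 fell, and in neil123 1 fell (KDM6A). BSO against media over both wt sets called 5 of the 18 as lower and 1 as higher, beside 15.7% of all genes tested. KMT2A, KMT2B, KMT2C, KMT2D and AFF1 were called as lower, but the sets differed in size or direction. KMT2B went from 3033 to 2629 in unlettered wt and from 4133 to 3860 in lettered wt, and AFF1 from 1499.8 to 1156 and from 1311 to 1312. KMT2A went from 4470.3 to 2850.4 in unlettered wt and from 4465 to 4812 in lettered wt, KMT2C from 2587 to 1562 and from 2300 to 2450.2, and KMT2D from 5237 to 3020.2 and from 6209 to 6115, and this difference between sets was not tested. ASH2L was called as higher, from 2825 to 3214 in unlettered and from 2647 to 3045 in lettered wt. The median log2 difference in neil2 media was -0.16 for the MLL and Trithorax list, 0.055 and 0.032 for the Polycomb lists, and 0.015 for all genes.

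Of 18 non-coding RNAs of the clusters 12 had a row and 9 passed the mean limit. HAGLR, which is transcribed against HOXD3, passed as higher in neil1 media (64.7 against 23.9, beside 0.3% of all genes tested) and in neil123 (72.8 against 30.6 in media, beside 5.34%), and HOXC-AS2 fell in neil123 (1.02 against 15.7 in media, 0.486 against 15.6 with BSO). HOXC-AS2 and HOTAIR followed the lines: HOXC-AS2 averaged 5.38 in line 11 and 50.5 in line 12 of neil2 and 4.08 in line 13 and 36.8 in line 12 of neil1, and HOTAIR 0.982 against 15.5 and 8.36 against 27.1. HOXC9 had the same order in these lines of neil1 and neil2, and the opposite order to HOTAIR in neil3, where HOTAIR was high in line 2 and HOXC9 low. Of 18 genes beside the clusters 12 were tested, and CBX5, near HOXC, was the 1 that passed in a knockout (neil2, 8812 against 11325 in media, beside 11% of all genes tested). With BSO against media, CALCOCO2, an autophagy receptor gene beside HOXB, rose in all 5 genotypes (by 0.36 ± 0.04 SE on the log2 scale in wt), and LNPK beside HOXD in neil3.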

How the data were processed

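RNA of 42 HAP1 libraries was sequenced. Per the submitters' processing notes the authors used Trim Galore, HISAT2, SAMtools, featureCounts and DESeq2 with GRCh38 (hg38); no label gives their versions, the annotation or the strand setting. The deposited signal values are read counts divided by DESeq2 size factors, so 1 read is worth 0.941 to 1.04. Of 30182 entries, 9667 carry no gene name and hold 0.868% to 1.25% of reads; they were left out of the tests. All values (100%) were whole multiples of 1 read within a relative tolerance of 1e-06, and these recovered reads were tested with edgeR 4.0.16 as an alternative.

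The test was limma 3.58.1 in R 4.3.3 with an intensity trend on log2(value + 1), for the 14331 genes averaging at least 10, in 12 groups, with Benjamini-Hochberg adjustment over all genes; a log2 difference on this scale understates changes of low genes. It was run on simulated data with the same scatter for all genes and no differences between lines. That run therefore does not check calls that rest on differences between lines. BSO and media libraries share names: same-named libraries deviated together in 21 of 21 pairs (r from 0.193 to 0.849), each best with its own partner, so paired fits are given too. Exon lengths, overlaps and coordinates came from GENCODE v29 and promoters from RefSeq GRCh38.p14, where 18 members matched. Named genes were chosen from the 37 members, described in full where called, and from the listed regulators that passed. Some genes are counted but not reported here by name, in the text or the figures. Members and lists were chosen with earlier results of these data known. Alternatives were the pseudocount, the filter, edgeR, equal totals, the label set as a term, 1 mean per line, single lines, blocks and each library left out. Figures were drawn with matplotlib 3.10.9 in Python 3.11.15.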

Additional observations from a re-analysis of the deposited data

Results flagged for a closer look

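HOXD13 was at 661 in the wt library 1.3A with BSO, apart from the other 3 lettered wt libraries with BSO, which lay between 496 and 518. HOXC9 was at 4.98 in the neil123 library 1A in media, apart from the other 3 at 0.987 to 1.04, a difference of a few reads. These are 2 of 66 groups of 4 libraries looked at, and chance sets a library apart in about 1 in 20. The BSO change of HOXD4 differed from that in wt by 0.65 in neil1 and by 0.66 in neil2 on the log2 scale in the paired fit (limma adjusted p = 0.0196 and 0.00620). All 3 pairs of unlettered wt, the set compared here, were lower with BSO, and all 3 pairs of neil1 and of neil2 were higher. Over all 7 wt pairs 4 were lower and 3 higher. HOXD4 shares 80.5% of its exon bases with AC009336.2, and which gene the reads came from was not tested.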

How the results depend on the processing

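Of 48 calls of single HOX genes, 48 held with a pseudocount of 5, 43 with edgeR on recovered reads, 44 with the mean limit at 1 and 45 with columns scaled to equal totals. Of 15 knockout calls, 14 held with the label set as a term and 5 with 1 mean per line. The single-line alternatives and the comparison of wt lines were chosen after seeing the data. With 1 mean per line, the HOX genes called numbered 1 in neil2 media and 2 with BSO, and 0 in neil123 in both treatments. Line 12 of neil2 alone is 1 library per treatment, so its calls are not counted here. Its log2 difference from wt was 3.196 in media and 3.05 with BSO for HOXC10, a gene not called with both lines. HOXD13 with BSO turned to -0.0073 in line 12 alone. Line 11 alone kept 9 of 9 calls. In neil123 media line 1 alone gave 0 and line 2 alone 1, and with BSO each gave 1. The label set as a term gave 4 in neil123 media, and the mean limit at 1 gave 2 in neil3 media (with HOXD10), 3 in neil123 media (with HOXD10, in the other direction) and 5 in neil2 media (with HOXB8, limma adjusted p = 0.0467). With the letter of the name as a replicate block, neil3 with BSO gave 2 (HOXD11 and HOXC6), and that block ended none of 6 calls. With names as pairs in a replicate block, BSO against media gave 6 in wt, 3 in neil1, 2 in neil2, 7 in neil3 and 3 in neil123, and the BSO change gave 1 in neil1 and 1 in neil2. For neil3, BSO against media gave 0 with edgeR, with the mean limit at 1 and with equal totals. Leaving out 1 library at a time gave 1 to 5 in neil2 media, 2 to 6 with BSO, 1 to 2 in neil123 media, 0 to 1 for BSO in neil3, 2 to 6 between the wt sets, 4 to 9 between neil1 lines and 3 to 6 between neil3 lines. Apart from line and library, the cause of these shifts was not tested. At means near 10 reads, counting error limits HOXD9, HOXD10, HOXD11 and HOXC9.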
